A study of Mus musculus with 8 samples.

Results

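The genes described here encode 10 cell-surface proteins by which stem cells and early lymphoid progenitors of the blood are sorted: Cd34, Ly6a, Procr, Tek, Slamf1, Cd48, Cd93, Ly6d, Bst1 and Cd24a. They were chosen by name, as every array probe annotated to one of these genes under its current symbol or an older one, which gave 14 probes. Of the 10 genes, 9 had a probe above background on enough arrays to be tested, among 16327 genes tested in all, and Tek did not. All groups were c-Kit+ fetal liver cells of Ebf1-/- mice on the C57Bl/6 background, so the control cells lack EBF1 too. EBF1 is the transcription factor that starts the B-lymphocyte programme. The cells grew on OP9 feeder cells, a mouse bone marrow stromal line, in medium with stem cell factor and Flt3 ligand at 10 ng/ml each and interleukin 7 at 5 ng/ml. They received a pMys retrovirus with IRES-GFP that carried no further gene (Empty, n = 2 arrays), wild-type EBF1 (Ebf1wt, n = 3) or EBF1-H240A (n = 3), a form in which alanine replaces a histidine. GFP+ cells were sorted 36 h after transduction, and their RNA was hybridised to one-colour Agilent arrays. The labels give neither the number of animals nor the promoter that drives the transgene, and the amount of EBF1 protein the cells made is not stated in them. Comparison of each EBF1 form with Empty asks what EBF1 does to these markers in progenitors, and comparison of the EBF1 forms with each other asks which of the changes depend on the mutated residue.

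Blood stem cells carry Sca-1 (the product of Ly6a), EPCR (Procr), TIE2 (Tek) and SLAMF1, and most of them lack CD48, which appears on the progenitors that descend from them. CD34 is a sialomucin of stem and progenitor cells that is lost as cells mature. As lymphoid progenitors take the B-cell path they gain LY6D, which separates B-biased from uncommitted common lymphoid progenitors, and later CD24 and BST1 (BP-3). CD93 (the antigen AA4.1) is present earlier, on multipotent progenitors of the fetal liver and on lymphoid progenitors, and stays on immature B cells. Several of these proteins, Sca-1, LY6D, CD48, CD24 and BST1 among them, are held in the membrane by a glycosylphosphatidylinositol (GPI) anchor.

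Values below are log2 of the processed signal after every array was scaled to the same 75th percentile. Differences are in log2 with the standard error (SE) of limma's model. A gene is called changed where its p, adjusted by Benjamini and Hochberg's method across the 16327 genes, was under 0.05. Before scaling, the 75th percentile of the arrays lay between 232 and 326, and 54.6% to 59.7% of probes per array had signal well above background. Replicates of a group correlated at r = 0.991 to 0.995 across the genes tested. No array stood apart from its group. The common leukocyte antigen gene Ptprc was bright on all arrays, with group means of 13.64, 13.44 and 13.58 in Empty, Ebf1wt and Ebf1-H240A. Kit, the gene of the receptor by which the cells were enriched, was well above background on all 8 arrays and lower by 0.79 with Ebf1wt (adjusted p = 0.00131) and by 1.14 with Ebf1-H240A (adjusted p = 2.21e-04). The Ebf1 probe did not separate the groups (means 10.15, 10.19 and 10.31), and whether it lies in the part of the gene that the vectors carry was not examined, so it gives no check of the labels. In such mixed samples, fewer cells of a type and less RNA per cell cannot be told apart.

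Of the 9 markers tested, 5 were called with Ebf1wt against Empty, 3 higher and 2 lower, where 38.4% of all genes tested were called (17.2% higher and 21.2% lower). With Ebf1-H240A against Empty, 6 were called, 3 higher and 3 lower, against a background of 44.6% (21.6% higher and 23% lower). Between the EBF1 forms, 4 differed, 2 higher and 2 lower with Ebf1-H240A, against 6.34% of all genes (3.63% higher and 2.71% lower). The comparisons with Empty share its 2 arrays. The genes were picked with earlier results of these data known, so the shares describe them and no more. Groups without overlap were common, at 61.3% of all genes for Ebf1wt against Empty, 65.5% for Ebf1-H240A against Empty and 29.9% between the EBF1 forms.

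Promoter sequence was at hand in RefSeq (GRCm38.p6) for 5 of the 10 genes. Those of Cd34, Procr and Slamf1 are shown, as the stem-cell markers among them that were called in some comparison. Each run covers the 250 bases before the annotated transcription start, 5′ to 3′ on the strand of the gene, and capitals mark a match to one of 3 motifs. Cd34 lies at chr1:194938571-194938820, Procr at chr2:155750967-155751216 and Slamf1 at chr1:171766882-171767131, all on the + strand.
Cd34: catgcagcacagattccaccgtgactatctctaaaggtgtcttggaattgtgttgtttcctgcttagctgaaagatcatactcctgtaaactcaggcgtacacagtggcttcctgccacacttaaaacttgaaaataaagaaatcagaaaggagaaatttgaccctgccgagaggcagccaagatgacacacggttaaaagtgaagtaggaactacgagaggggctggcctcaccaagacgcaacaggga
Procr: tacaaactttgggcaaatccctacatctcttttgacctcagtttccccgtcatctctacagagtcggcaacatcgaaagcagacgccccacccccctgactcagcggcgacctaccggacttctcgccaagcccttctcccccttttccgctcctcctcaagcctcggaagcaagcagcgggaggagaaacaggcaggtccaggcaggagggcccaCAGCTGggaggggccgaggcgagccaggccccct
Slamf1: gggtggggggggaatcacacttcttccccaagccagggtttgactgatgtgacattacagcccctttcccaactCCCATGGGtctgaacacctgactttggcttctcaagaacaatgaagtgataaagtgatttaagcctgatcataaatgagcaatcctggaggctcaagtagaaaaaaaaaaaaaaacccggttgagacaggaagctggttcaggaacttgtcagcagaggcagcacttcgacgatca
The motifs searched on both strands were the core of the EBF motif, CCCNNGGG, the RUNX motif TGTGGT and the E-box CAGCTG, which do not contain one another. Among 32851 mouse promoters of this length, 11.8% held the EBF core, 14.0% the RUNX motif and 13.0% the E-box. Procr held the E-box, 34 bases before the start. Slamf1 held the EBF core as CCCATGGG, 176 bases before the start. The Cd34 window held none of these letters, and nor did that of Tek, while Cd48 held TGTGGT 76 bases before its start. A match describes the letters in the window and not a bound site.

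Among the markers of stem cells and multipotent progenitors, Cd34 had the largest loss. The Cd34 probe (mm9 chr1:196787392-196787451) gave 14.09 and 13.97 in Empty, 11.94, 12.22 and 12.16 in Ebf1wt cells, and 12.90, 12.86 and 12.81 in Ebf1-H240A cells. The 3 groups did not overlap: Empty was highest, Ebf1wt lowest and Ebf1-H240A lay between them. Cd34 fell by 1.93 ± 0.10 (SE) with Ebf1wt, to 26.3% of the Empty signal (adjusted p = 2.10e-05). It fell by 1.17 ± 0.10 with Ebf1-H240A, to 44.3% (adjusted p = 1.48e-04). The EBF1 forms differed by 0.75 ± 0.09, the signal with Ebf1-H240A being 1.68-fold that with Ebf1wt (adjusted p = 0.00662). On the 2 slides taken singly, the difference between the EBF1 forms was 0.66 and 0.77.

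Ly6a moved the other way. Its probe (mm9 chr15:74825553-74825612) gave 15.40 and 15.41 in Empty, 16.02, 16.10 and 16.11 in Ebf1wt cells, and 15.95, 15.89 and 15.99 in Ebf1-H240A cells. All 6 arrays with an EBF1 form lay above both Empty arrays. Ly6a rose by 0.67 ± 0.06 with Ebf1wt (1.59-fold, adjusted p = 3.00e-04) and by 0.54 ± 0.06 with Ebf1-H240A (1.45-fold, adjusted p = 6.24e-04). The difference between the EBF1 forms, -0.13 ± 0.06, did not pass the test (adjusted p = 0.22).

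Procr, whose product binds protein C on stem cells and endothelium, was dim and rose with both EBF1 forms. It gave 2.02 and 2.60 in Empty, 3.67, 3.85 and 4.47 in Ebf1wt cells, and 4.00, 4.05 and 4.31 in Ebf1-H240A cells. The first of the Empty arrays was not well above background, the other 7 arrays were, and all 6 arrays with an EBF1 form lay above both Empty arrays. Procr rose by 1.69 ± 0.27 with Ebf1wt (3.22-fold, adjusted p = 0.00317) and by 1.81 ± 0.27 with Ebf1-H240A (3.51-fold, adjusted p = 0.00188). The EBF1 forms differed by 0.12 ± 0.24 (adjusted p = 0.821). The size of the rise depended on the processing. With normexp background correction it was 0.37 (adjusted p = 0.0323) and 0.46 (adjusted p = 0.00603). That setting added an offset of 50 to every signal, which by itself shrinks log2 differences of dim probes. In the authors' deposited log2 values the rise was 0.74 (adjusted p = 0.00562) and 0.81 (adjusted p = 0.0026).

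Sca-1 and EPCR are also made by endothelial and stromal cells. The summed scaled signal of 16 endothelial markers was 2220 to 2310 on the Empty arrays, 2980 to 3070 with Ebf1wt and 2970 to 3330 with Ebf1-H240A. Egfl7 alone made up 65.8% to 67.8% of the sum in Empty, and without it the sums were 745 to 758, 859 to 894 and 678 to 732. Of the 9 endothelial markers tested, 3 were higher and 2 lower with Ebf1wt, and 2 higher and 2 lower with Ebf1-H240A (medians 0.17 and 0.04). The other 7 were well above background on no array, Cdh5, Tie1 and Emcn among them. The sum over 20 stromal markers was 10200 to 10600, 12400 to 14900 and 14400 to 15600 in the same order, 84.8% to 87.8% of it Acta2 in Empty, and 1290 to 1540, 2460 to 2840 and 2940 to 3040 without Acta2. Of the 17 stromal markers tested, 7 were higher with Ebf1wt and 10 with Ebf1-H240A, and none was lower (medians 0.59 and 0.58), while 3 were above background on no array. The part of these cells in the rise of Ly6a and Procr was not tested.

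Tek, the receptor for angiopoietins, could not be followed. The probe in its RefSeq transcript was well above background on 0 of 8 arrays, and a probe from a cDNA clone only on the first Ebf1wt array, at 3.41.

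The 2 SLAM family receptors of the set showed small or unstable differences. The Slamf1 probe that could be tested gave 3.61 and 4.10 in Empty, 3.59, 3.95 and 3.59 in Ebf1wt cells, and 3.37, 2.77 and 3.28 in Ebf1-H240A cells, where the last 2 values were not well above background. Empty and Ebf1wt overlapped, while the Ebf1-H240A arrays lay below the rest. Slamf1 fell by 0.71 ± 0.23 with Ebf1-H240A (adjusted p = 0.0414). The call was lost with normexp (0.00, adjusted p = 0.989), whose offset of 50 shrinks differences of dim probes, and without the second Empty array (-0.47). In all, it held in 7 of 19 alternatives, 3 of them among the 8 that left out 1 array. With Ebf1wt the difference was -0.14 ± 0.23 (adjusted p = 0.669), and the EBF1 forms differed by -0.57 ± 0.21 (adjusted p = 0.16). A further Slamf1 probe was well above background on 0 of 8 arrays.

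Cd48, which marks progenitors past the stem-cell stage, was bright in all groups. It gave 12.18 and 12.28 in Empty, 12.07, 12.08 and 12.11 in Ebf1wt cells, and 12.15, 11.98 and 12.12 in Ebf1-H240A cells. Both Empty arrays lay above the rest, but by little. The difference from Empty was -0.14 ± 0.07 with Ebf1wt (adjusted p = 0.161) and -0.15 ± 0.07 with Ebf1-H240A (adjusted p = 0.144), neither past the test. Scaling the arrays to their median made both calls (-0.24, adjusted p = 0.0489, and -0.29, adjusted p = 0.0245). That scaling moved the median of all genes to -0.13 and -0.14, from -0.04 and 0.00. A further Cd48 probe read 9.66 and 9.85, then 9.48, 9.55 and 9.45, then 9.52, 9.43 and 9.58, in the same order of groups.

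**Figure D1:**
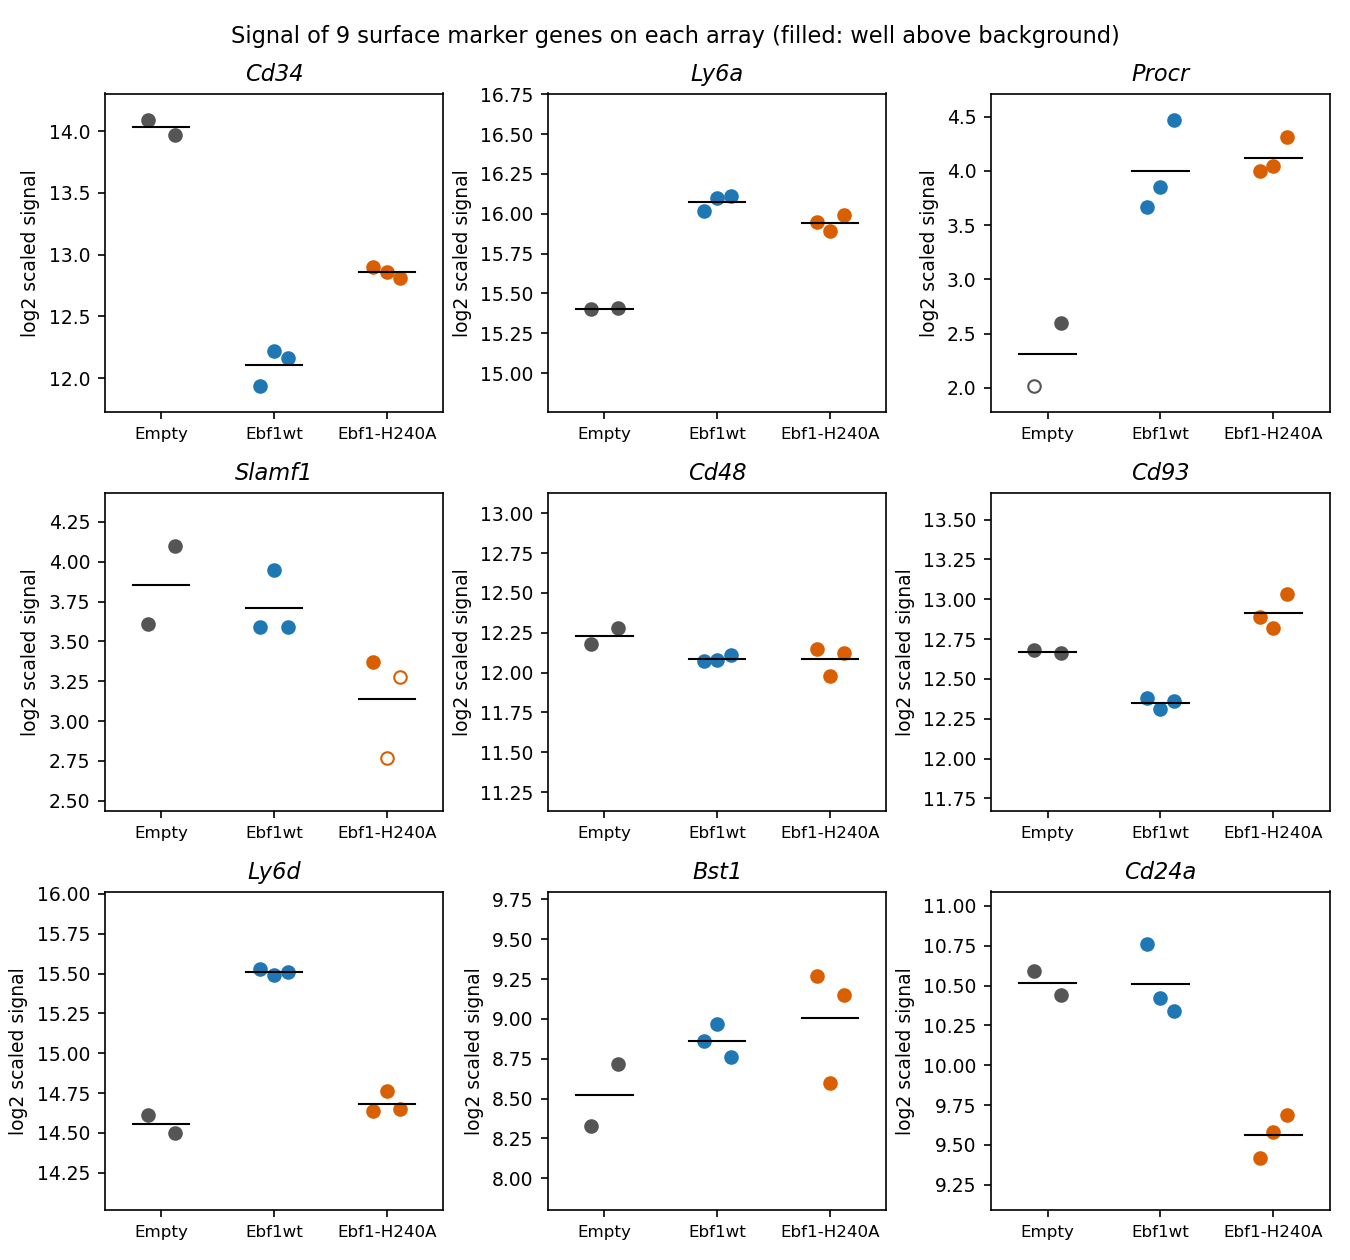
Log2 scaled signal (vertical axis, with its own range in each panel) of the 9 markers tested on each of the 8 arrays, by group. Points are arrays, bars are group means and open points were not well above background; Cd34 falls in steps from Empty to Ebf1-H240A to Ebf1wt, and Ly6d is highest with Ebf1wt.

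Among the markers of lymphoid and B-cell progenitors, Ly6d set the EBF1 forms furthest apart in terms of adjusted p. The Ly6d probe (mm9 chr15:74592551-74592610) gave 14.61 and 14.50 in Empty, 15.53, 15.49 and 15.51 in Ebf1wt cells, and 14.64, 14.76 and 14.65 in Ebf1-H240A cells. The Ebf1wt arrays were high, and the Ebf1-H240A arrays lay just above the Empty arrays. Ly6d rose by 0.95 ± 0.07 with Ebf1wt (1.94-fold, adjusted p = 8.12e-05). With Ebf1-H240A its difference from Empty was 0.13 ± 0.07 and did not pass the test (adjusted p = 0.155). The difference between the EBF1 forms was -0.82 ± 0.06 (adjusted p = 0.00136), and -0.79 and -0.87 on the 2 slides taken singly.

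Cd93 went to opposite sides of Empty with the EBF1 forms. Its probe (mm9 chr2:148262436-148262495) gave 12.68 and 12.66 in Empty, 12.38, 12.31 and 12.36 in Ebf1wt cells, and 12.89, 12.82 and 13.03 in Ebf1-H240A cells. The groups did not overlap, with Ebf1wt lowest and Ebf1-H240A highest. The signal with Ebf1-H240A was higher than with Ebf1wt by 0.57 ± 0.07 (adjusted p = 0.00731), and by 0.55 and 0.67 on the 2 slides taken singly. A further probe read 8.53 and 8.46, then 8.22, 8.19 and 8.25, then 8.80, 8.87 and 8.81, and differed by 0.61 between the EBF1 forms.

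The differences of Cd93 from Empty were less firm than the difference between the EBF1 forms. Cd93 fell by 0.33 ± 0.08 with Ebf1wt (adjusted p = 0.0145), a call that held in 13 of 20 alternatives and was lost without the first (adjusted p = 0.0724) or the second Empty array (adjusted p = 0.0613). It rose by 0.24 ± 0.08 with Ebf1-H240A (adjusted p = 0.0358), a call that held in 7 of 20 alternatives and in 1 of the 8 that left out 1 array, with adjusted p of up to 0.132 in these. Scaling to the median gave 0.11 (adjusted p = 0.241). CD93 is also made by myeloid and endothelial cells. The summed signal of 17 myeloid markers was 26900 to 32300 on the Empty arrays, 23500 to 30300 with Ebf1wt and 36600 to 47600 with Ebf1-H240A, with 3 markers above background on no array. Lyz2 made up 61.2% to 63.8% of it in Empty, and without Lyz2 the sums were 10400 to 11700, 8970 to 10300 and 12500 to 15000. The single markers went both ways: of 13 tested, 3 were higher and 5 lower with Ebf1wt (median -0.04), and 7 higher and 5 lower with Ebf1-H240A (median 0.68). With Ebf1-H240A against Ebf1wt, 4 were higher and none lower. The part of myeloid cells in these differences was not tested.

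Cd24a, the gene of the heat-stable antigen, was lower with Ebf1-H240A than in either of the other groups. Its probe (mm9 chr10:43303706-43303765) gave 10.59 and 10.44 in Empty, 10.76, 10.42 and 10.34 in Ebf1wt cells, and 9.42, 9.58 and 9.69 in Ebf1-H240A cells. Empty and Ebf1wt overlapped, and all Ebf1-H240A arrays lay below them. Cd24a fell by 0.96 ± 0.14 with Ebf1-H240A (1.94-fold, adjusted p = 0.00192), whereas the difference with Ebf1wt was -0.01 ± 0.14 (adjusted p = 0.968). The EBF1 forms differed by -0.95 ± 0.13 (adjusted p = 0.0107), and by -0.92 and -0.86 on the 2 slides taken singly.

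CD24 is abundant on erythroid precursors as well. The sum over 11 erythroid markers was 10900 to 11900 on the Empty arrays, 2660 to 3220 with Ebf1wt and 1940 to 2030 with Ebf1-H240A, with 4 markers above background on no array, Klf1 among them. The globin gene Hbb-bt made up 75.9% to 77.9% of it in Empty, and without Hbb-bt the sums were 2620 to 2640, 1710 to 2160 and 1220 to 1300. Of 6 erythroid markers tested, 1 was higher and 3 lower with each EBF1 form (medians -0.46 and -0.72). The higher one, named after its values were seen, was Alas2, the first enzyme of haem synthesis in red cells. Alas2 was not well above background in Empty. It was about 116-fold higher with Ebf1wt (adjusted p = 8.79e-06) and 62.3-fold higher with Ebf1-H240A (adjusted p = 1.26e-05), folds that are approximate. The part of erythroid cells in the fall of Cd24a was not tested.

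Bst1, an ADP-ribosyl cyclase related to CD38, varied within groups about as much as between them. It gave 8.33 and 8.72 in Empty, 8.86, 8.97 and 8.76 in Ebf1wt cells, and 9.27, 8.60 and 9.15 in Ebf1-H240A cells. The Ebf1wt arrays lay just above Empty, and the second Ebf1-H240A array lay inside the Empty range. The difference from Empty was 0.34 ± 0.21 with Ebf1wt (adjusted p = 0.265) and 0.48 ± 0.21 with Ebf1-H240A (adjusted p = 0.114). Without the second Ebf1-H240A array the latter was 0.69 (adjusted p = 0.0139). It was also called with normexp (0.49, adjusted p = 0.0108) and in the authors' deposited log2 values (0.58, adjusted p = 0.0358), so in 3 of 20 alternatives.

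**Figure D2:**
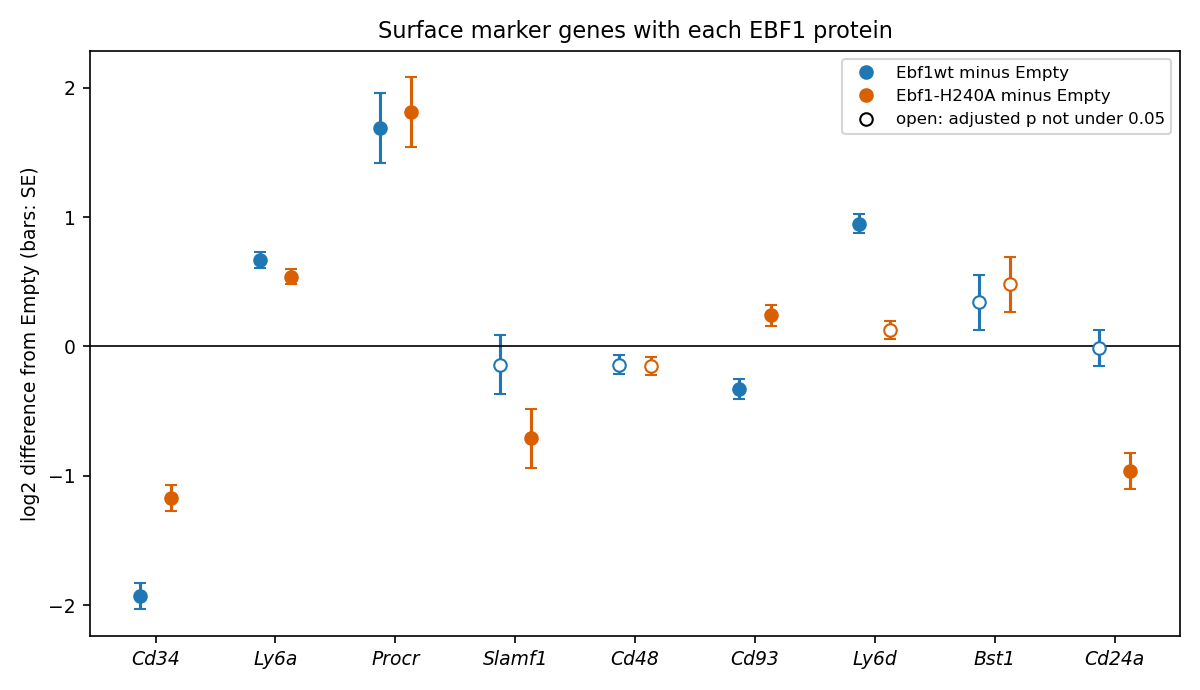
Log2 difference from Empty (vertical axis) of the 9 markers tested, with Ebf1wt (blue) and Ebf1-H240A (orange); bars are the SE and open points did not pass an adjusted p under 0.05. The 2 colours lie close together for Ly6a, Procr and Cd48 and apart for Cd34, Cd93, Ly6d and Cd24a, the 4 genes called between the EBF1 forms.

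The neighbourhood of these markers was read from lists of related genes, which were drawn up with earlier results of these data known. Of 22 other surface genes of stem and multipotent progenitors tested, 9 were higher and 7 lower with Ebf1wt (median 0.32, against -0.04 over all genes). With Ebf1-H240A, 7 were higher and 8 lower (median -0.10, against 0.00). The shares called were 72.7% and 68.2%, against 38.4% and 44.6% of all genes tested. Cd9, which encodes a tetraspanin, rose by 1.77 with Ebf1wt (adjusted p = 1.70e-05) and by 1.14 with Ebf1-H240A (adjusted p = 9.21e-05). Csf2rb, the shared beta chain of the receptors for interleukin 3, interleukin 5 and GM-CSF, rose by 1.44 (adjusted p = 7.94e-04) and 2.10 (adjusted p = 1.21e-04) with Ebf1wt and Ebf1-H240A. The integrin gene Itga2b, of megakaryocytes and early progenitors, fell by 2.74 (adjusted p = 3.35e-04) and 2.34 (adjusted p = 5.38e-04). Cd27 fell by 1.31 (adjusted p = 4.54e-05) and 1.72 (adjusted p = 1.17e-05).

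Between the EBF1 forms, 3 of the 22 were higher and 3 lower with Ebf1-H240A, a share of 27.3% against 6.34% of all genes tested. Flt3, the receptor for one of the cytokines in the medium, differed by -0.66 ± 0.09 (adjusted p = 0.0109). It rose by 0.34 with Ebf1wt (adjusted p = 0.0357) and fell by 0.32 with Ebf1-H240A (adjusted p = 0.0376), calls that held in 1 and 2 of the 8 fits without 1 array, with adjusted p of up to 0.149 and 0.153 in these. Cd9 differed by -0.63 (adjusted p = 0.00731), Cd82 by 0.57 (adjusted p = 0.00946) and Csf2rb by 0.66 (adjusted p = 0.0493), the last held in 1 of the 8 fits without 1 array.

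Of 19 other surface genes of lymphoid and B-lineage progenitors tested, 6 were higher and 7 lower with Ebf1wt (median -0.14). With Ebf1-H240A, 6 were higher and 10 lower (median -0.31). The shares called were 68.4% and 84.2%, against 38.4% and 44.6% of all genes tested. Cd40, a TNF receptor family gene of B cells, rose by 3.41 with each EBF1 form (adjusted p = 4.45e-06 and 4.15e-06). Cd7 fell by 1.54 (adjusted p = 6.22e-04) and 1.51 (adjusted p = 5.42e-04). Siglech, a marker of plasmacytoid dendritic cells and some of their precursors, was well above background in Empty alone. It was about 3.82-fold lower with Ebf1wt (adjusted p = 3.12e-04) and 7.88-fold lower with Ebf1-H240A (adjusted p = 3.31e-05), folds that are approximate. Between the EBF1 forms, 3 were lower with Ebf1-H240A and none higher (7 and 1 by limma's unadjusted p under 0.05), one of the 3 being Siglech, which was not well above background with either form. For Il2ra, the interleukin 2 receptor alpha chain, the difference was -0.63 (adjusted p = 0.00731). The 3 called between the forms made up 15.8% of the list, against 6.34% of all genes tested.

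Ly6a and Ly6d belong to the LY6 and uPAR family, of which 19 other genes were tested. With Ebf1wt, 10 rose and none fell (median 0.47), and by limma's unadjusted p under 0.05 the counts lower were 0 with each EBF1 form. With Ebf1-H240A, 9 rose and none fell (median 0.39), a count that was 5 after scaling to the median, and 1 fell without the third Ebf1-H240A array. The shares called were 52.6% and 47.4%, against 38.4% and 44.6% of all genes tested. Plaur, the urokinase receptor, rose by 2.80 (adjusted p = 6.20e-06) and 3.24 (adjusted p = 3.36e-06), and Ly6f by 2.14 (adjusted p = 8.26e-06) and 2.43 (adjusted p = 4.45e-06). Ly6a, Ly6f and their nearest relatives on chromosome 15 are similar in sequence, so their probes may share signal. Between the EBF1 forms, Plaur was higher by 0.44 (adjusted p = 0.0422) and Lynx1 lower with Ebf1-H240A (-0.76, adjusted p = 0.00296). These were the 2 called among the 19 other genes. The Plaur call held in 1 of the 8 fits without 1 array.

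Of 11 genes of other SLAM receptors and their adaptors tested, 2 rose and 1 fell with each EBF1 form, and 0 were called by limma between the forms, where 4 were higher and 1 lower with Ebf1-H240A at an unadjusted p under 0.05. The 27.3% called with each EBF1 form lay below the share over all genes tested. Inpp5d, the SHIP1 phosphatase that acts below these receptors, rose by 0.69 (adjusted p = 3.82e-04) and 0.86 (adjusted p = 1.19e-04), and Cd84 by 0.53 (adjusted p = 0.00533) and 0.89 (adjusted p = 4.61e-04). Cd244a, a receptor for CD48, fell by 0.81 (adjusted p = 8.49e-04) and 0.83 (adjusted p = 5.85e-04).

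Of 14 ligands, co-receptors and relatives of the markers tested, 2 were higher and 6 lower with Ebf1wt, and 3 higher and 5 lower with Ebf1-H240A. The share called was 57.1% with each EBF1 form, against 38.4% and 44.6% of all genes tested. Mmrn2, a ligand of CD93, rose by 1.40 (adjusted p = 2.53e-04) and 1.74 (adjusted p = 8.03e-05). It was dim, with means of 2.11, 3.51 and 3.85 in Empty, Ebf1wt and Ebf1-H240A, and was well above background on 1 of the 2 Empty arrays. Cd248, which is related to CD93 and made by stromal cells, rose by 2.80 (adjusted p = 1.39e-04) and 1.93 (adjusted p = 5.45e-04). Nt5e, the ectonucleotidase CD73, fell by 1.21 (adjusted p = 3.96e-04) and 2.26 (adjusted p = 2.04e-05). Siglecg, a receptor for CD24, fell by 0.98 with Ebf1wt (adjusted p = 4.76e-04), and the P-selectin ligand gene Selplg by 1.12 with Ebf1-H240A (adjusted p = 1.09e-04). Each was called lower with both EBF1 forms. In Empty, Ebf1wt and Ebf1-H240A, the means were 7.88, 6.91 and 6.96 for Siglecg and 13.64, 12.74 and 12.52 for Selplg. Between the EBF1 forms, Nt5e (-1.05, adjusted p = 0.00447) and Cd248 (-0.87, adjusted p = 0.0489) were lower with Ebf1-H240A, and the call of Cd248 held in 3 of the 8 fits without 1 array. These genes made up 14.3% of the list, against 6.34% of all genes tested.

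Of 27 genes that make and attach the GPI anchor tested, 2 were higher and 6 lower with Ebf1wt, and 6 higher and 3 lower with Ebf1-H240A, counts that moved with many of the settings. In all, 29.6% and 33.3% of these genes were called, below the 38.4% and 44.6% of all genes tested. Pigz, a mannosyltransferase, rose by 2.15 (adjusted p = 8.80e-06) and 1.80 (adjusted p = 1.49e-05). Pigf fell by 0.51 (adjusted p = 5.08e-04) and 0.52 (adjusted p = 4.08e-04). Pgap1, which removes a fatty acid from the new anchor, fell by 0.42 with Ebf1wt (adjusted p = 0.00601) and rose by 0.36 with Ebf1-H240A (adjusted p = 0.00846; 0.0519 without the second Empty array). It was higher by 0.78 with Ebf1-H240A than with Ebf1wt (adjusted p = 0.00297), the 1 anchor gene called between the EBF1 forms. Pigp rose by 0.18 with Ebf1wt (adjusted p = 0.0371), a call that held in 0 of the 8 fits without 1 array. Gpaa1, of the transamidase that attaches the anchor, fell by 0.68 with Ebf1-H240A (adjusted p = 0.00268). With Ebf1wt, Gpaa1 fell by 0.34 (adjusted p = 0.0463), a call that held in 2 of the 8 fits without 1 array.

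**Figure D3:**
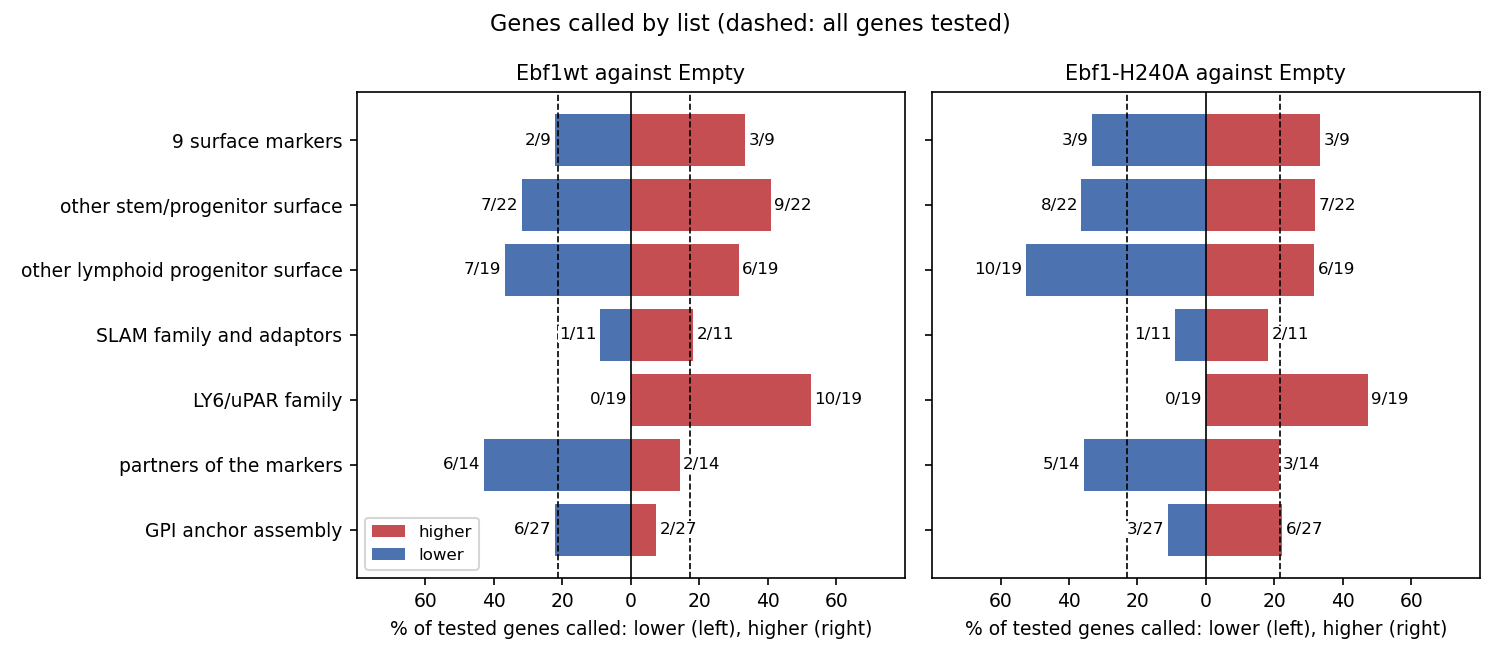
Percent of the tested genes of each list that were called lower (left, blue) or higher (right, red), with Ebf1wt and Ebf1-H240A against Empty; figures beside the bars are genes called of genes tested and dashed lines mark the share over all 16327 genes. The LY6 and uPAR family has 10 and 9 of 19 genes called higher and none lower, the 9 being 5 after scaling to the median.

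The sum over 14 markers of T and innate lymphoid cells was 22400 on both Empty arrays, 13800 to 14300 with Ebf1wt and 16000 to 17400 with Ebf1-H240A, and all 14 were above background on some array. Id2 made up 41.9% to 45.2% of this sum in Empty, 60.8% to 62.8% with Ebf1wt and 66.4% to 73.3% with Ebf1-H240A. Without Id2 the sums were 12300 to 13000, 5320 to 5450 and 4650 to 5380. Of the 14 markers, 1 was higher and 10 lower with Ebf1wt, and 2 higher and 10 lower with Ebf1-H240A (medians -0.82 and -1.14). The sum over 13 mast cell and megakaryocyte markers was 1810 to 1900, 1100 to 1190 and 883 to 1010, with 7 above background on no array. Kit made up 84.4% of it in Empty, and without Kit the sums were 281 to 297, 233 to 255 and 213 to 256. Of the 6 tested, 3 were higher and 3 lower with each EBF1 form (medians 0.41 and 0.31). The sum over 13 hepatocyte markers was 611 to 615, 213 to 242 and 107 to 116, with 10 above background on no array, the defining genes Alb and Afp among them. Ahsg made up 84.9% to 86.3% of it in Empty, and without Ahsg the sums were 84.4 to 92.6, 56.7 to 59.5 and 55.3 to 65. Of the 3 tested, 2 were lower with each EBF1 form and 1 was higher with Ebf1-H240A. The part of these cells in the results for the 10 markers was not tested.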

How the data were processed

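The submitters' processing notes name Agilent Feature Extraction 10.5.1.1 for the scanner output. The deposited values are, per the file headers, spot intensities on a linear scale, with 0 or 1 flags for spots well above background, saturated or outlying, and probe positions in mm9. The deposited value table holds log2 values; no source used here gives how the authors normalized and centred them. The table's column medians were 4.90 to 4.93, each column correlated positively with its own array's scanner values (r = 0.986 to 0.992), and it served as an alternative.

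The processed intensities of 43379 non-control spots were scaled to a common 75th percentile, floored at 1 and taken to log2. Outlier spots were left out, and 41174 probes resulted. Probes well above background on at least 2 of 8 arrays were kept (25034), and 24 of them without a value on some array were dropped. Names were updated with RefSeq genes of GRCm38.p6 (27903 probes by accession, 5448 by symbol, 370 by synonym, 7453 left as in the files). Each gene took its brightest kept probe. The 3 groups were fitted together with limma 3.58.1 (lmFit, eBayes; 5 residual and 1.8 prior degrees of freedom) in R 4.3.3, tested on simulated data, with Benjamini-Hochberg adjustment over 16327 genes. For a gene that no array of a group showed well above background, the fold was taken against a reference signal. On each of those arrays this was the probe's own signal or, if higher, the lowest signal well above background. That is not a detection limit, since some probes not well above background read higher, so such folds are approximate. The 10 markers and all lists were chosen with earlier results of these data known. From each list and comparison, the 2 called genes with the largest rise and the 2 with the largest fall are named, except for some that are not reported here. The labels do not say that replicates were separate cultures, so p-values here reflect only how these samples vary, and that variation may be technical. Arrays lay on 2 slides, each with all 3 groups. The number of arrays limits the precision. No spot was saturated. Whether replicate numbers pair the samples could not be settled. The deviations of same-numbered arrays correlated at -0.33 to 0.19, and those of differently numbered arrays at -0.45 to 0.42. The 2 Empty arrays deviate from their mean by equal and opposite amounts, so their correlations mirror each other.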

Additional observations from a re-analysis of the deposited data

Results flagged for a closer look

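The effects of Ebf1wt and Ebf1-H240A differed in the direct test for 4 of the 9 markers tested, against 6.34% of all genes tested. The markers were picked with earlier results of these data known. Relative to Ebf1wt, Cd34 was higher with Ebf1-H240A by 0.75 ± 0.09 (SE; limma adjusted p = 0.00662) and Cd93 by 0.57 ± 0.07 (adjusted p = 0.00731), and these differences had the same sign on both slides. Ly6d was lower with Ebf1-H240A (-0.82 ± 0.06, adjusted p = 0.00136), and so was Cd24a (-0.95 ± 0.13, adjusted p = 0.0107), also on both slides.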

How the results depend on the processing

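Among alternative values for single markers, 458 of 534 kept direction and side of the threshold, 55 lost and 5 gained a call, and 16 changed sign, none of them called before or after. The number of markers called was 5, 6 and 4 for Ebf1wt against Empty, Ebf1-H240A against Empty and Ebf1-H240A against Ebf1wt. Over all genes tested, 38.4%, 44.6% and 6.34% were called. Leaving out 1 array gave 4 to 5, 4 to 6 and 4. Within slide 1 it was 0, 2 and 0, and within slide 2 it was 0, 0 and 0, fits with 1 array in some groups that then borrow the spread of the others; by limma's unadjusted p under 0.05 the counts were 4, 4 and 4 on slide 1 and 5, 4 and 4 on slide 2. With the replicate block, although it is not known that the numbers pair the arrays, 5, 4 and 3 markers were called. Over all 16327 genes the counts were 4810, 5921 and 359. Cd24a between the EBF1 forms was lost (-0.95, adjusted p = 0.0537). All genes called between the EBF1 forms numbered 1035, and 646 with the value table, 337 with no filter on dim probes, 643 with the slide as a block and 359 with the replicate block.

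Sign changes were as follows. Slamf1 with Ebf1wt was 0.03 with normexp, 0.34 within slide 1 and 0.10 without the second Empty array. Ly6d with Ebf1-H240A was -0.01 with scaling to the median and -0.07 in the value table. Between the EBF1 forms, Cd48 was 0.01 with the mean over probes, 0.02 with the slide as a block, 0.03 within slide 2, 0.01 without the third Ebf1wt array and 0.05 without the second Ebf1-H240A array. Bst1 there was -0.03 within slide 1, and Procr -0.04 without the first Ebf1wt array. Cd24a with Ebf1wt was 0.11 within slide 2, and 0.06, 0.04 and 0.07 without the first Empty, the second Ebf1wt or the third Ebf1wt array. With 1 array left out, Slamf1 ranged from -0.39 to 0.10, Procr from -0.04 to 0.36 and Cd24a from -0.14 to 0.07 in these comparisons. Cd93 with Ebf1wt also lost its call with normexp (-0.29, adjusted p = 0.0524), the value table (-0.26, adjusted p = 0.0962) and no filter (adjusted p = 0.0574). The cause was not tested. Signal over background limits Procr, Slamf1 and Tek.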
